A study of Mus musculus with 23 samples.

Results

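The 10 genes described here, Slc17a7, Neurod6, Tbr1, Slc30a3, Nrn1, Cck, Prdm8, Vxn, Ccn3 and Bmp3, are linked to projection neurons of the cerebral cortex and were measured in punches of the mouse nucleus accumbens. They are 10 of the 22180 genes that had a probe set of their own, and each of the 10 was read by a single probe set. They were chosen from earlier results of these data as the cortex-linked genes that varied most between arrays, so their spread is the choice itself and is given as a description, with no test.

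The tissue came from C57BL/6 mice of about 15 weeks, with 1 array per mouse, collected about 5 weeks after virus (an adeno-associated virus, AAV) was injected into this region. The virus carried either a short hairpin RNA against Nr1d1, which encodes the clock repressor REV-ERBα, or a scrambled hairpin, which all control mice received. There were 5 female controls, 6 females labelled Nr1d1 knockdown, 6 male controls and 6 males labelled Nr1d1 knockdown, all described as biological replicates. The sources used here give neither the cell types that the hairpin reached nor the hour of collection. The label text on a postpartum day is attached to the male samples too, so reproductive state was not used.

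The cerebral cortex sends glutamate-releasing axons into the striatum, of which the nucleus accumbens is the ventral part. The cell bodies of these projection neurons, which hold most of their RNA, lie in the cortex, in the amygdala and in other areas around the striatum. Most neurons of the nucleus accumbens itself are medium spiny neurons, which release GABA and express dopamine receptors and opioid peptides. In bulk tissue, fewer cells of a type and less RNA per cell cannot be told apart.

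The 10 genes fall into 3 groups by role. Slc17a7 and Slc30a3 load synaptic vesicles: the first encodes the vesicular glutamate transporter VGLUT1 and the second the zinc transporter ZnT3. Tbr1, Neurod6 and Prdm8 encode transcription factors of excitatory cortical neurons, and Vxn encodes vexin, a protein of neuronal differentiation. Cck, Nrn1, Ccn3 and Bmp3 encode cholecystokinin, neuritin, a matricellular protein and a bone morphogenetic protein, all of which reach the cell surface or are secreted. They lie on 8 chromosomes, with Slc30a3, Prdm8 and Bmp3 all on chromosome 5.

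Since the 10 genes varied together, the sequence upstream of their start sites is shown for 3 of them, 1 of each role. RefSeq windows on GRCm38.p6 were matched for 6 of the 10 genes (7 windows). The 250 bases before the start site are printed 5′ to 3′ on the gene's strand, for Slc17a7 (chr7:45163671-45163920, plus strand), Neurod6 (chr6:55681264-55681513, minus strand) and Cck (chr9:121495695-121495944, minus strand). Capitals mark a match to a searched motif on either strand.
Slc17a7: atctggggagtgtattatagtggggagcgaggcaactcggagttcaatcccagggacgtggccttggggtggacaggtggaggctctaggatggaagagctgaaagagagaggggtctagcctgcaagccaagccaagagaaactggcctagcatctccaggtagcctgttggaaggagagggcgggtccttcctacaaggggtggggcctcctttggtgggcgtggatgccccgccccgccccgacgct
Neurod6: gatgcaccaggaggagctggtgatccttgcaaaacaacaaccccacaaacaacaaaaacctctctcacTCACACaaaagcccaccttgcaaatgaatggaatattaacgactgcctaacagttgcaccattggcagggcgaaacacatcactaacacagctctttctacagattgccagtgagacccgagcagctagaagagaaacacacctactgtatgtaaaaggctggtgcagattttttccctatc
Cck: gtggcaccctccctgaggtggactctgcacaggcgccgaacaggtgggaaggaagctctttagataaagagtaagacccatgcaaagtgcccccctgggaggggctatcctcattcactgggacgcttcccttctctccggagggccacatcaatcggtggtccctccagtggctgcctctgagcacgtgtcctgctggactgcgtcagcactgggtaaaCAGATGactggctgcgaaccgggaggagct
The windows also hold the 50 bases after the start site, which were not searched. In each window the 250 bases before the start site were searched for 3 motifs. CAGATG, an E-box that NeuroD factors bind, was found in 1 of the 7 windows, that of Cck at −30, against 14.4% of all 32851 windows. TCACAC, a half-site of T-box factors such as TBR1, was found in 2 of 7, at −182 in Neurod6 and at −230 in the second window of Slc30a3, against 12.3%. AGGTCA, the half-site of REV-ERB and ROR receptors, was in 0 of 7, against 14.0%. The strings do not overlap each other in the printed sequences, and the promoter of Slc17a7 held none of the 3. A match is a description of these letters and not a binding site.

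Some properties of the whole series touch the values below. The values are deposited log2 intensities. Array medians lay at 6.11 to 6.17 in females and 5.84 to 5.88 in males, so the female and male arrays may have been normalized apart, and no level was tested between them. Lower quartiles were 4.77 to 4.84 in females and 4.50 to 4.56 in males. Genes of the X and Y chromosomes matched the labelled sex on all 23 arrays. The medium spiny neuron genes that define the tissue were present on every array, with Penk at 12.41 to 12.93 and Drd1 at 9.82 to 10.72. The targeted gene, Nr1d1, differed by −0.05 (SE 0.09) in females and −0.01 (SE 0.09) in males between arrays labelled knockdown and control, less than the spread between mice, so every direction below rests on the label alone. Among the male arrays, control 1 and control 2 were the highest 2 in 9 of the 10 genes, Prdm8 being the exception. Control 3, control 5, control 6 and knockdown 6 were the lowest 4 in 9 of the 10, Nrn1 being the exception. The male differences below are also given with single arrays left out, and the male striatal relations without control 1, without control 1 and control 6, and without the 4 lowest.

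Slc17a7 had the highest spread within groups of all 22180 genes, with an SD of 1.59 on the log2 scale. The median SD over all genes was 0.12 and the 95th percentile 0.22. In the 5 female controls Slc17a7 stood at 9.40, 10.46, 11.05, 10.57 and 10.48. The 6 knockdown females ran from 8.92 through a median of 10.32 to 11.13. These female groups overlapped over almost their full range, and in each of them a single array lay more than 1 log2 unit below the rest. In the 6 male controls Slc17a7 was 10.34, 10.18, 5.43, 8.01, 6.17 and 4.64, and in the 6 knockdown males 8.98, 8.72, 9.97, 9.80, 8.96 and 5.37. Male controls thus held both the highest and the lowest male array, and the knockdown males lay inside their range. From male control 6 to male control 1 the difference was 5.70, a ratio of 52.0, where the ratio of the highest to the lowest female array was 4.63. The 4.64 of male control 6 lay close to the lower quartile of all probe sets on the male arrays, a range in which these files do not separate signal from background. Slc17a7 on male control 3 and male knockdown 6 also lay below the array medians. So did the lowest male values of Neurod6 (5.49), Tbr1 (5.27) and Prdm8 (5.45). The male ratios of these genes rest in part on such low values.

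**Figure D1:**
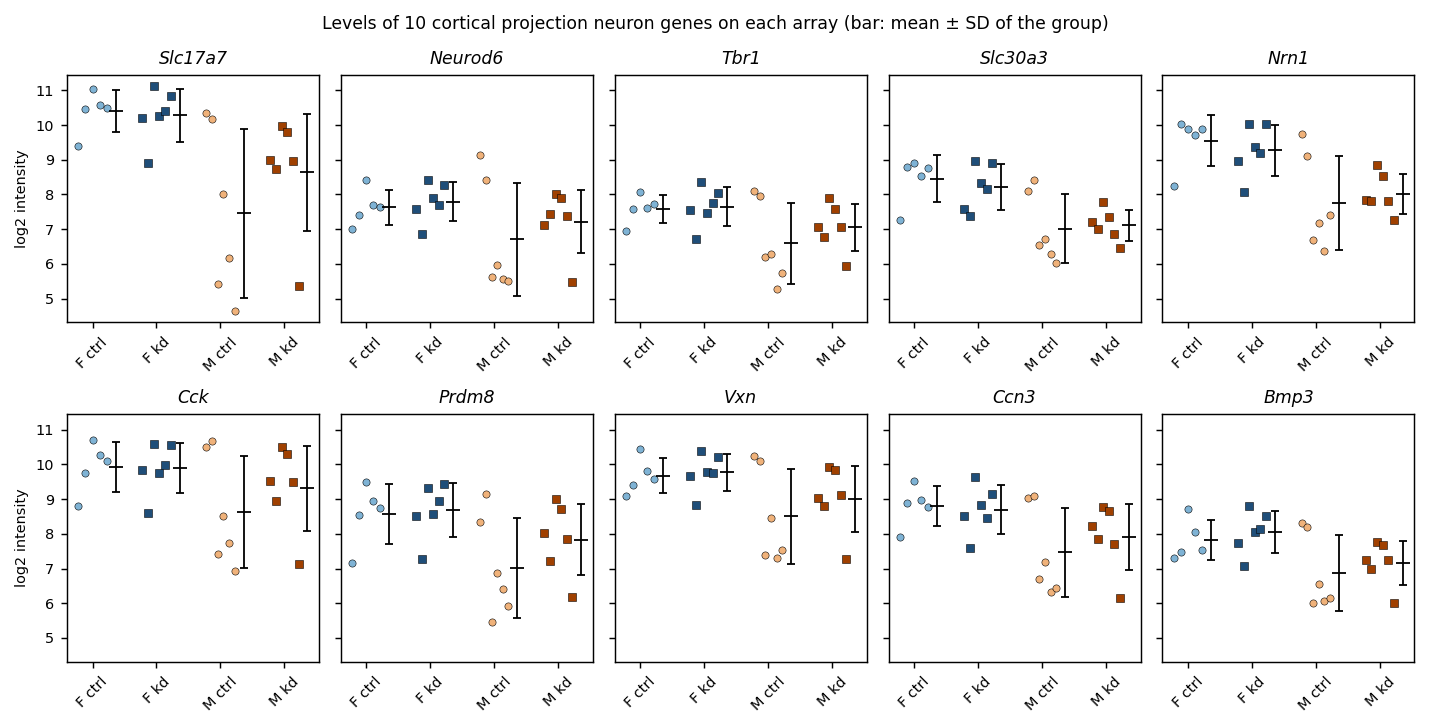
Log2 intensity of each of the 10 genes on the 23 arrays, with 1 panel per gene and a shared vertical axis. Points are single arrays in the groups female control (F ctrl), female knockdown (F kd), male control (M ctrl) and male knockdown (M kd), and bars are the group mean ± SD. The male controls spread most in every panel, from 4.64 to 10.34 for Slc17a7, while the female arrays of Slc17a7 lie between 8.92 and 11.13.

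Slc30a3, the other vesicle gene, was the least variable of the 10, with an SD of 0.72 and rank 17 of 22180. It stood at 7.26, 8.80, 8.90, 8.54 and 8.76 in the female controls and ran from 7.38 through 8.25 to 8.95 in the knockdown females. Male controls ran from 6.02 through 6.63 to 8.41 and knockdown males from 6.46 through 7.11 to 7.79. Its high and low arrays were those of Slc17a7, with female control 1 and male control 6 at the bottom of their groups. Next to it in spread, and outside the 10 genes, stood the cortical genes Fezf2 (SD 0.75, rank 15) and Neurod2 (SD 0.74, rank 16).

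The transcription factor genes repeated this order of arrays. Neurod6, a basic helix-loop-helix factor, stood at 7.02, 7.41, 8.41, 7.69 and 7.64 in female controls and at 6.86 through 7.81 to 8.43 in knockdown females. Its male controls split into 9.13 and 8.41 on control 1 and control 2 and 5.51 to 5.98 on the other 4. Knockdown males ran from 5.49 through 7.40 to 8.02. Neurod6 thus had no male control between 5.98 and 8.41, the interval in which 5 of the 6 knockdown males lay. Tbr1, a T-box factor of early-born deep-layer neurons, ranged over 1.65 log2 units in females (6.72 to 8.37) and 2.82 in males (5.27 to 8.09). Prdm8, a histone methyltransferase family member, had the second largest range of the 10 over all arrays, 4.04, from 5.45 on male control 3 to 9.49 on female control 3. Vxn ranged from 8.84 to 10.44 in females and from 7.27 to 10.25 in males, with 4 male arrays at 7.27 to 7.52 and the other 8 at 8.46 or above.

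The genes for secreted and surface proteins varied to a like degree. Cck, a neuropeptide of cortical neurons and of some interneurons, stood at 8.81, 9.74, 10.69, 10.27 and 10.10 in female controls and at 8.59 through 9.92 to 10.60 in knockdown females. Male controls ran from 6.94 through 8.12 to 10.66 and knockdown males from 7.12 through 9.50 to 10.50. Among the male arrays the ratio of the highest to the lowest was 13.2 for Cck, close to the 13.1 of Prdm8 and the 12.5 of Neurod6. Nrn1, an activity-regulated protein of neurite growth, was 8.24, 10.03, 9.88, 9.70 and 9.88 in female controls and 6.37 through 7.29 to 9.73 in male controls. It departed most from the common order: male control 6, the lowest array of Slc17a7, stood at 7.40 for Nrn1, above 3 other male controls. Ccn3 ranged from 7.59 to 9.64 in females and 6.16 to 9.08 in males, and Bmp3, whose range of 2.79 was the smallest of the 10, from 7.08 to 8.79 and 6.00 to 8.30.

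Sorting the arrays by each gene gave nearly the same extremes every time. Female control 1 and female knockdown 2 were the lowest 2 of the 11 female arrays in 10 of 10 genes. Female control 3, knockdown 3 and knockdown 6 were the highest 3 in 9 of 10, Nrn1 being the exception. Among the 12 male arrays, control 1, control 2, knockdown 3 and knockdown 4 were the highest 4 in 10 of 10 genes. Control 3, control 5, control 6 and knockdown 6 were the lowest 4 in 9 of 10, again with Nrn1 as the exception. Both the high and the low arrays included controls and arrays labelled knockdown in each set.

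Pairs of the 10 genes were compared by Pearson's r over the deviations of arrays from their group mean, separately in the 11 female and the 12 male arrays. All 45 pairs were positive in females and all 45 in males. In females r ran from 0.74 (Nrn1 and Bmp3) to 0.99 (Neurod6 and Vxn), with a median of 0.93. Males gave 0.83 (Slc17a7 and Nrn1) to 0.99 (Vxn and Bmp3), with a median of 0.95. Female values under 0.80 occurred in 2 pairs, Nrn1 and Bmp3 and Slc30a3 and Bmp3 (0.76), and the closest female partner of Nrn1 was Slc30a3 (0.97). Leaving out any single array kept every pair positive, and the lowest r was then 0.60, without female knockdown 2. Without the 4 male arrays of lowest Slc17a7 the male pairs ran from 0.75 to 0.996, with a median of 0.96. The genes share arrays, RNA and normalization, and were chosen for their spread, so these values describe the arrays and carry no test.

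**Figure D2:**
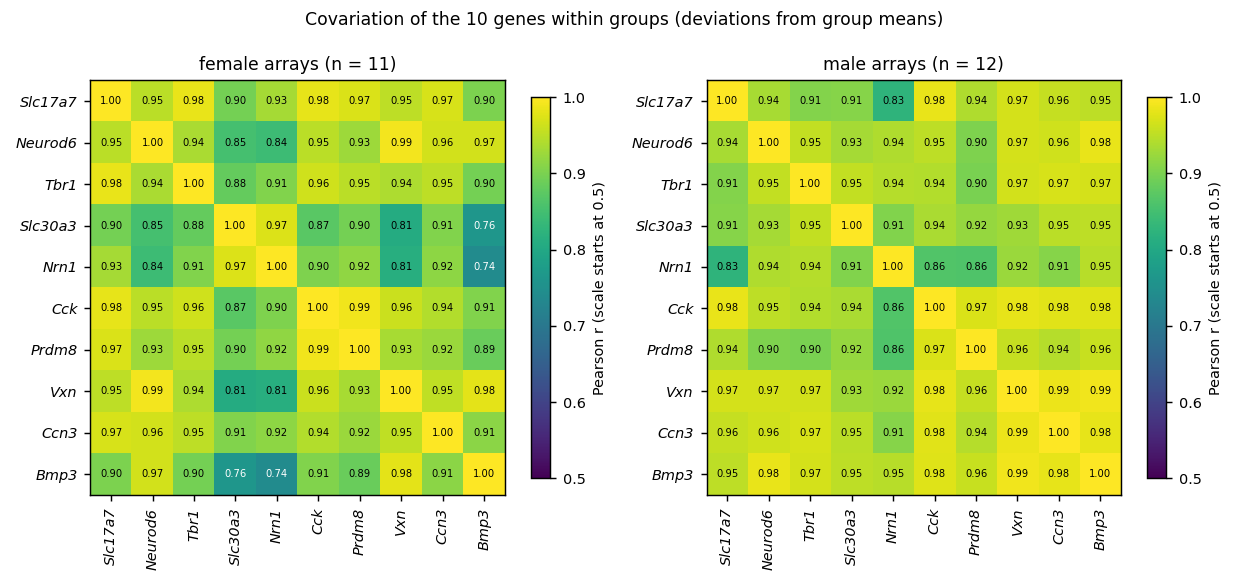
Pearson r of each pair of the 10 genes over within-group deviations, in the 11 female arrays (left) and the 12 male arrays (right), on a colour scale that starts at 0.5. Every cell is positive. The lowest female cells join Bmp3 to Nrn1 (0.74) and Slc30a3 (0.76), and the lowest male cell joins Slc17a7 and Nrn1 (0.83).

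The genes moved by unequal amounts for a given difference in Slc17a7. In females, Prdm8 differed by 1.14, Cck by 1.02 and Nrn1 by 0.99 log2 units for each log2 unit of Slc17a7, and Tbr1 (0.71), Vxn (0.72) and Neurod6 (0.73) by the least. In males the slopes were lower for all 9 genes, from 0.34 for Slc30a3 and 0.40 for Bmp3 to 0.59 for Neurod6 and 0.67 for Cck. Male arrays also reached lower levels of Slc17a7, and the part of that in the slopes was not tested.

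**Figure D3:**
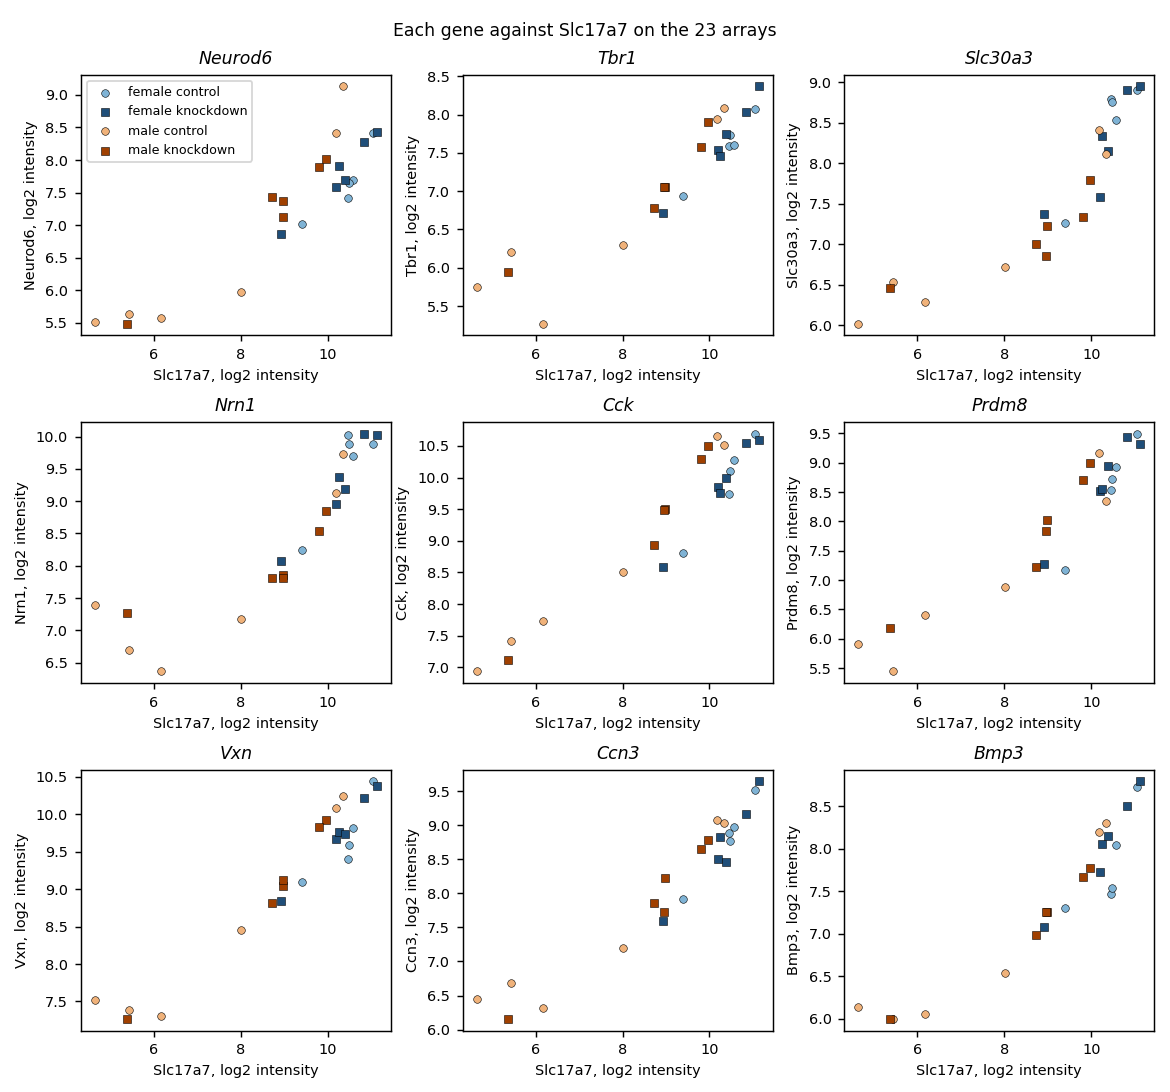
Log2 intensity of each of the other 9 genes (vertical axis) against Slc17a7 (horizontal axis) on the 23 arrays, 1 panel per gene, coloured by group. In each panel the arrays run from male control 6, at 4.64 for Slc17a7, to female knockdown 3, at 11.13, and control and knockdown arrays lie along the same band. Nrn1 on male control 6, at 7.40, lies above that band's lower end.

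Medium spiny neuron genes gave the opposite direction in females and no common direction in males. Drd1 encodes the D1 dopamine receptor of direct-pathway neurons, Penk the enkephalin precursor of indirect-pathway neurons, and Pde10a a phosphodiesterase found in both. Over the 11 female arrays Drd1 ranged from 10.27 to 10.72, Penk from 12.68 to 12.93 and Pde10a from 10.93 to 11.18, and the 2 arrays lowest in the cortical genes, control 1 and knockdown 2, held the highest 2 values of Drd1 (10.72 and 10.67) and of Penk (12.90 and 12.93). Relations between the 10 genes and these 3 were tested in each set by permuting arrays within groups, with Benjamini-Hochberg adjustment over all 60 relations. In females, r with Drd1 ran from −0.94 (Tbr1) to −0.79 (Bmp3), and 10 of 10 passed (adjusted permutation p = 0.00307 to 0.0235). With Penk it ran from −0.92 to −0.87, and 10 of 10 passed (adjusted permutation p = 0.003 to 0.00435). With Pde10a it ran from −0.68 to −0.54, and 0 of 10 passed (adjusted permutation p = 0.0894 to 0.197). Drd1 and Penk were thus lower where the cortical genes were higher, while the relation to Pde10a did not pass the test. Of the 22179 other genes, 1.83% had an r of −0.8 or lower with Drd1, 2.31% with Penk and 0.397% with Pde10a in females, against 9, 10 and 0 of the 10. The 10 genes varied together over the same arrays, so these counts are not 10 separate observations for any of the 3 striatal genes.

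Spearman's rho ran from −0.95 to −0.67 for Drd1, where 6 of 10 passed, from −0.94 to −0.84 for Penk, where 10 of 10 passed, and from −0.77 to −0.61 for Pde10a, where 1 of 10 passed. When the 2 arrays farthest from each gene's median were left out, always including female knockdown 2, 9 arrays remained, and r ran from −0.93 to −0.63 for Drd1 and from −0.91 to −0.77 for Penk. Over these 9 arrays 1 of 10 relations to Drd1, that of Tbr1, and 4 of 10 to Penk passed. Without female knockdown 2 alone, 16 relations of the 60 passed in place of 20. Without female control 5, whose Pde10a was the lowest of the females at 10.93, r with Pde10a ran from −0.92 to −0.74 and 30 of the 60 passed.

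In the 12 male arrays, r ran from −0.28 to 0.13 for Drd1, from −0.62 to −0.20 for Penk and from −0.06 to 0.42 for Pde10a, and Spearman's rho from −0.18 to 0.15, −0.48 to −0.09 and 0.02 to 0.41. None of the 30 passed (adjusted permutation p = 0.186 to 0.98). An r of −0.8 or lower was reached by 0 of the 10 genes with Drd1, Penk or Pde10a, against 0.0857%, 0.225% and 0.347% of the 22179 other genes. The lowest male Pde10a values were on control 6 (10.41) and control 1 (10.49), the arrays at opposite ends of Slc17a7. Without both, a choice made after seeing the values, r with Pde10a was 0.57 to 0.82 and 10 of 10 relations passed (adjusted permutation p = 0.0212 to 0.0401), and those to Drd1 (0.11 to 0.42) and Penk (−0.25 to 0.07) did not. Without the 4 male arrays of lowest Slc17a7, also chosen after seeing the values, r was −0.74 to −0.40 for Drd1, −0.70 to −0.11 for Penk and −0.37 to 0.19 for Pde10a over 8 arrays, and 0 of 30 passed. Without male control 1 alone, r was 0.10 to 0.51 for Drd1, −0.21 to 0.28 for Penk and 0.34 to 0.79 for Pde10a. The male sign thus changed with the arrays included for all of Drd1, Penk and Pde10a. Leaving out the 2 farthest arrays of each gene gave 1 passing male relation, Slc30a3 and Drd1, at r = 0.87. Whether the relations differ between females and males was not tested.

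**Figure D4:**
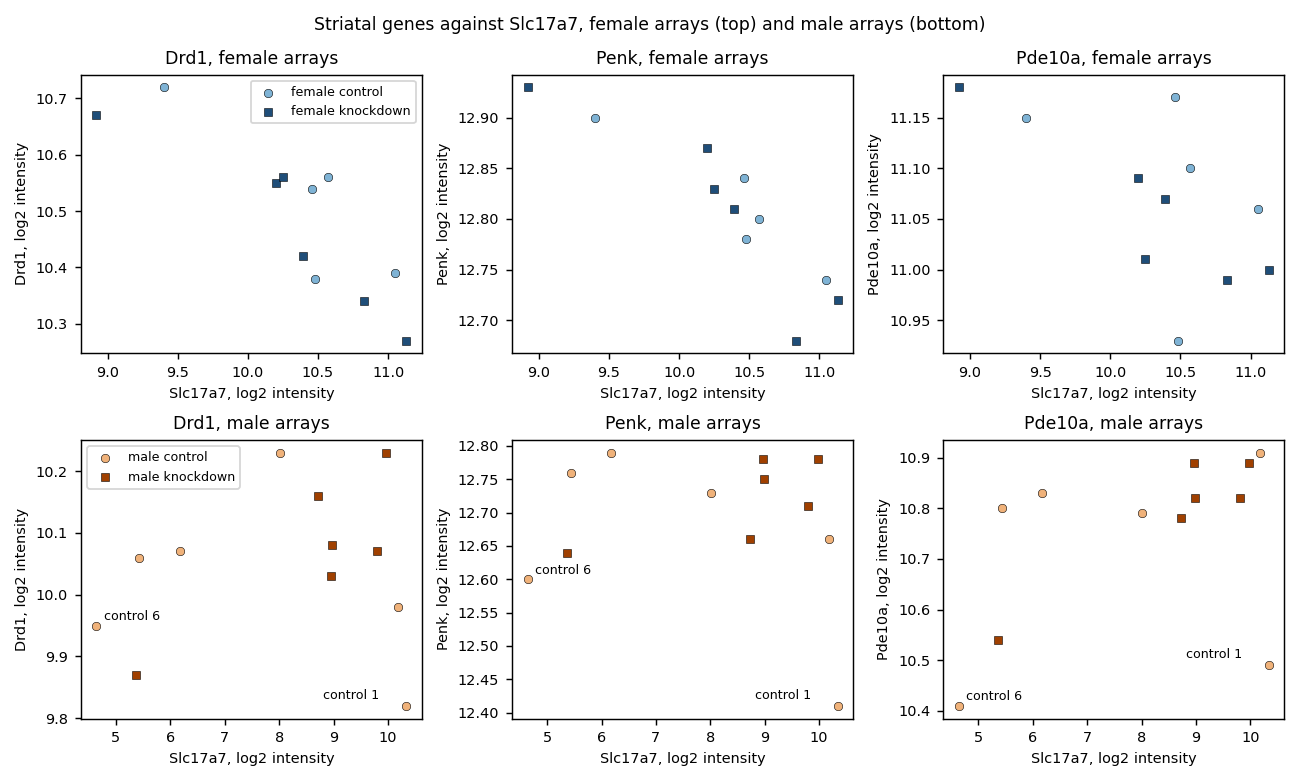
Log2 intensity of Drd1, Penk and Pde10a (vertical axes, each with its own range) against Slc17a7 (horizontal axis), in the 11 female arrays (top) and the 12 male arrays (bottom), coloured by group. In females Drd1 and Penk descend from left to right (r = −0.89 and −0.90). In males no single slope is seen, and control 1 and control 6, at opposite ends of Slc17a7, both have low Pde10a (10.49 and 10.41).

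Of a list of 22 medium spiny neuron genes 19 were measured, among them Drd1, Penk and Pde10a, so that their counts are not separate from the relations above. In females 18 of 19 were negative in r with Slc17a7 and 7, Drd1 and Penk included, were at −0.8 or lower, with a median of −0.72, where 1.18% of all genes were that low. In males 12 of 19 were positive and the median was 0.10, with 0 of 19 at −0.8 or lower against 1.88% of all genes. Arpp21, also on this list, was positive in both sets, at 0.64 in females and 0.90 in males, and whether its RNA came from medium spiny neurons was not tested. The mean level of the list was 10.40 to 10.64 in female controls, 10.39 to 10.66 in knockdown females, 9.89 to 10.23 in male controls and 10.05 to 10.30 in knockdown males, and none of its genes is listed at 0. Male control 1, highest in Slc17a7, had the lowest list mean of the 12 male arrays. Male control 6, lowest in Slc17a7, had the next lowest.

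The label of cortical projection neurons was checked against 41 measured genes of a further list of 44 cortical genes. Over within-group deviations of all 23 arrays, 30 of the 41 were positive in r with Slc17a7 and 9 reached 0.8, with a median of 0.46 against 0.002 over all genes. Neurod2, a partner of Neurod6 in excitatory neurons, followed Slc17a7 in both sets (r = 0.97 in females and 0.95 in males) and ranged from 6.30 to 8.89. Fezf2, which specifies subcerebral projection neurons, followed it less (0.44 and 0.76), and stood at 8.48 on male control 1 where the other 11 male arrays were at 5.17 to 6.87. Rorb, a gene of the granular layer, gave 0.66 and 0.36. Tle4, of corticothalamic neurons, went from −0.91 in females to 0.12 in males. Cux1 and Pou3f1, chosen after their values were seen, were negative in both sets (−0.88 and −0.77, −0.82 and −0.83). They do not stand for a cortical layer. On the same list Cux2 gave 0.30 in females and −0.44 in males, and Rasgrf2 0.20 and −0.56. Lamp5 gave −0.65 and 0.30, and Otof −0.31 and −0.06. The list as a whole therefore followed Slc17a7 only in part, and some of its genes, Tle4 among them, are also known from striatal neurons.

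Among the genes outside the 10, those most like Slc17a7 over all 23 arrays were Sv2b (r = 0.94), Nr4a2, Neurod2, Hs3st2, Prkce, Adcy1, Prss12, Stx1a, Nptx1 and Mical2 (0.91). Sv2b encodes a synaptic vesicle protein and ranged from 9.57 to 11.38. Nr4a2, an orphan nuclear receptor present in deep cortical layers and the claustrum, ranged from 6.33 to 9.52 and was itself rank 10 in spread. Hs3st2 is a heparan sulfate sulfotransferase, Adcy1 a calcium-stimulated adenylyl cyclase, Stx1a a syntaxin of transmitter release and Nptx1 a neuronal pentraxin. An r of 0.8 or higher was reached by 0.744% of 22179 genes over all arrays, 2.38% in females and 1.66% in males. Outside the 10 genes, 135 reached it in both sets, 26.1% of the 518 that did in females and 37.6% of the 359 that did in males. The most opposite genes over all 23 arrays were Cacna2d2 (−0.95), a calcium channel subunit, Ptch1 (−0.94), the hedgehog receptor, Rit2 (−0.93), a neuronal small GTPase, Rab9b (−0.93) and Trpm3 (−0.92). In the same order r was −0.97, −0.96, −0.94, −0.95 and −0.96 in males. In females it was weaker, at −0.78, −0.68, −0.85, −0.78 and −0.53. An r of −0.8 or lower was found in 0.532% of genes over all arrays. These most opposite genes ranged over 0.44 to 0.81 log2 units, far less than Slc17a7.

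The design compares arrays labelled knockdown with controls in each set, which asks whether the cortical genes differed with the Nr1d1 hairpin. No probe set passed the adjusted threshold of 0.05 in limma in any of the 4 contrasts (0% of 41345), and 5.86% of probe sets in females and 4.71% in males had an unadjusted p under 0.05. For the 10 genes both counts were 0 in both sets. In females, the mean level of Slc17a7 was 10.39 ± 0.60 in the controls (SD, n = 5), and it was 10.29 ± 0.76 in the knockdown arrays (SD, n = 6). The difference was −0.11 (SE 0.89, 95% interval −1.95 to 1.74, limma adjusted p = 0.995). That error pools the wide male spread, and the females fitted alone gave the same difference with an SE of 0.37 (interval −0.90 to 0.69). By exact permutation, two-sided, p was 0.788. Of the 10 genes 5 were higher and 5 lower in the knockdown females, from −0.27 for Nrn1 and −0.23 for Slc30a3 to 0.16 for Neurod6 and 0.24 for Bmp3, with a median of 0.01. All were smaller than the spread between mice. Leaving out female knockdown 2 turned the Slc17a7 difference to 0.17, leaving out female control 3 turned it to 0.06, and leaving out female control 1 made it −0.35.

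In males, the controls had a mean Slc17a7 level of 7.46 ± 2.44 (SD, n = 6), and the knockdown arrays one of 8.63 ± 1.68 (SD, n = 6). The difference was 1.17 (SE 0.85, 95% interval −0.59 to 2.93, limma adjusted p = 0.996), with 5 of 6 knockdown arrays above the control mean, and exact permutation, two-sided, gave p = 0.372. Without male control 6 it was 0.61, without male control 3 it was 0.77 and without male knockdown 6 it was 1.82, the last with an adjusted p of 0.919. Without both male control 1 and male control 6 it was 1.19. Over all alternative settings the unadjusted limma p of this difference ran from 0.0295 to 0.466, and the lowest limma adjusted p was 0.897. All 10 genes had a higher mean in the knockdown males, with Slc17a7 followed by Prdm8 at 0.80 (SE 0.57), Cck at 0.68 (SE 0.61), Neurod6 at 0.52 (SE 0.55) and Vxn at 0.50 (SE 0.50), and ending with Slc30a3 at 0.10 (SE 0.39). With single arrays left out, Prdm8 ran from 0.49 (without male control 3) to 1.23 (without male control 2), and Cck from 0.34 (without male control 6) to 1.12 (without male knockdown 6). Neurod6 ran from 0.28 (without male control 6) to 1.0 (without male control 1), and Vxn from 0.26 (without male control 5) to 0.85 (without male control 1). The size of the male differences thus depended on single arrays. Their median was 0.48, against 0.003 over all genes, of which 51.4% were higher. As the pairs above show, the 10 values follow the same arrays and are not 10 separate observations, and each lay within the spread between mice. In the same contrast 17 of 19 medium spiny neuron genes and 31 of 41 other cortical genes were higher, with medians of 0.10 and 0.05 and 0 past the threshold in either list. Their part in the male difference was not tested.

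**Figure D5:**
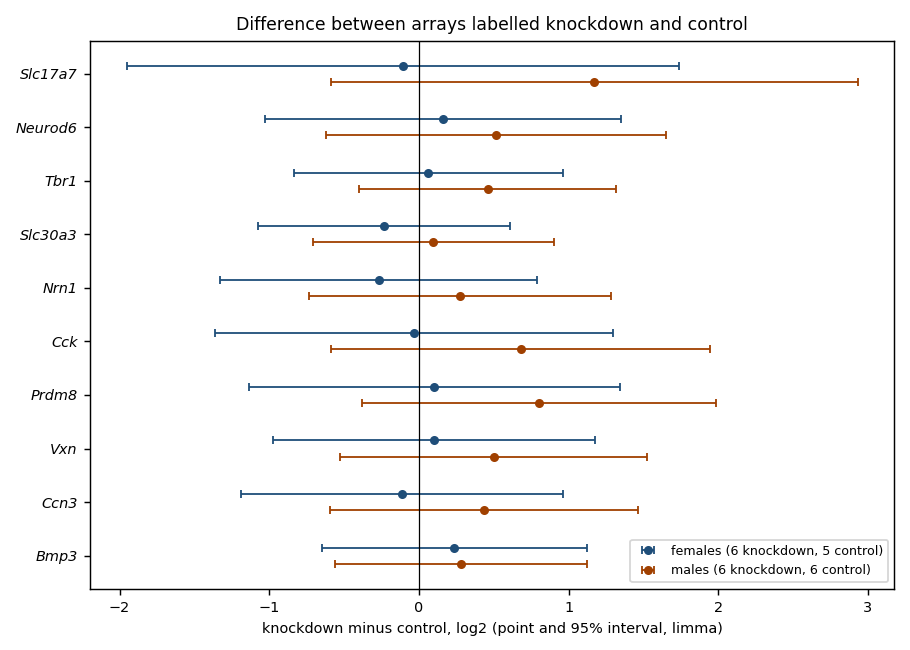
Knockdown minus control on the log2 scale for the 10 genes, in females and in males, as points with 95% intervals from limma. Every interval spans 0. The male points all lie to the right of 0, from 0.10 for Slc30a3 to 1.17 for Slc17a7, and the female points lie on both sides, from −0.27 to 0.24.

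Averaged over both sets, 9 of 10 genes were higher, with Slc17a7 at 0.53 (SE 0.62), Prdm8 at 0.45 (SE 0.41) and Slc30a3 at −0.07 (SE 0.28). The male difference exceeded the female one in 10 of 10 genes, from 0.05 (SE 0.59) for Bmp3 to 1.28 (SE 1.23) for Slc17a7, where the limma adjusted p was 0.944. Over all genes, 51.2% were higher in the average and 50.6% had the larger male difference. The 10 genes follow the same arrays, so neither count stands for 10 separate observations. For Slc17a7, the average ran from 0.25 without male control 6 to 0.86 without male knockdown 6, and the difference between the sets from 0.71 to 1.93 without the same arrays. None of the 10 had an unadjusted p under 0.05 in either contrast, against 4.71% and 5.70% of all probe sets. Neither the knockdown difference of these genes nor its change between females and males was distinguishable from the spread between mice at this number of arrays.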

How the data were processed

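RNA of the nucleus accumbens of 23 mice was measured on whole-transcript arrays, with cDNA made from 150 ng of total RNA, per the labels' protocols. The authors deposited 1 table of log2 intensities for 41345 probe sets. Transcriptome Analysis Console is named in the submitters' processing notes. The normalization, the version, the build and any slide or scan batch were not given in the sources used here.

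Gene names came from the platform annotation, in which 23521 probe sets had 1 symbol, 1814 several and 16010 none. A gene with several probe sets was read by the one with the highest mean. Symbols were checked by Entrez number against the GRCm38.p6 gene table (23328 matched, 0 changed).

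All 41345 probe sets and 23 arrays entered 1 linear model with a mean per group (limma 3.58.1, R 4.3.3, default empirical Bayes), with Benjamini-Hochberg adjustment over all probe sets at 0.05. Correlations used deviations from group means, with 100000 permutations of arrays within groups (two-sided), and Slc17a7 was also compared by an exact permutation test (scipy 1.17.1). All scripts with tests were tested on simulated data.

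The members, gene lists and rules were chosen with earlier results of these data known. Named genes were the 10 members, Nr1d1, Drd1, Penk and Pde10a, Fezf2, Neurod2, Rorb and Tle4, and the 10 genes most like Slc17a7 and 5 least like it. Cux1, Pou3f1 and Arpp21, and the genes under Other observations, were chosen after their values were seen. Further marker lists covered interneurons, septum and hypothalamus, astrocytes, myelin, microglia, and ependyma with choroid plexus. Alternatives were quantile normalization, array weights, probe sets above the median level, a trended robust fit, each set alone, the mean of all probe sets of a gene, a replicate block and leaving out each array. Same-numbered arrays did not deviate together, so the numbers were not used as pairs. The number of arrays limits the precision.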

Additional observations from a re-analysis of the deposited data

Results flagged for a closer look

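Within each group, the highest and the lowest array of the 10 genes, of the striatal genes Drd1, Penk and Pde10a and of 5 further named genes were checked for a gap to the other arrays that is large for the range of the group (Dixon's criterion, by which chance marks about 1 in 20 groups). Of 72 groups 6 were marked, where chance would give 3.6 if the groups were separate. They are not, since the 10 genes were chosen for their spread and follow the same arrays. The count of marks is therefore a description and carries no test. Male knockdown 6 stood at 5.37 for Slc17a7, where the other 5 knockdown males lay at 8.72 to 9.97. The same array stood at 5.49 for Neurod6, where the others lay at 7.12 to 8.02, and at 10.54 for Pde10a, where the others lay at 10.78 to 10.89. Female control 1 stood at 7.26 for Slc30a3, below the 8.54 to 8.90 of the other 4 controls, and at 8.24 for Nrn1, below 9.70 to 10.03. Female control 4 stood at 9.93 for Nr1d1, below 10.05 to 10.09, on an array that was not extreme in the cortical genes.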

How the results depend on the processing

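Of 274 differences of the 10 genes and Nr1d1 under the planned settings other than leaving out an array, 270 kept their direction and their side of the threshold and 4 changed sign, and 0 passed the adjusted threshold in any setting (adjusted p from 0.841 to 1). With the replicate block, Tbr1 in females was −0.018, Prdm8 in females −0.048 and Nrn1 over both sets −0.0752, and with array weights Nrn1 over both sets was −0.0445. The cause was not tested. Same-numbered arrays correlated at −0.10 to 0.14 over 11 pairs, 2 over 0.1, and 1 array correlated best with its own number, so the block does not stand for a pairing, and it called 0 probe sets in each contrast. The count of called probe sets was 1 in place of 0 for the difference between sets with array weights, and for males and for the difference between sets without both male control 1 and male control 6, a setting chosen after seeing the data. Leaving out each array gave 0 to 1 in females, in males and for the difference between sets.

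Differences that changed sign when an array was left out spanned, in females, −0.35 to 0.17 for Slc17a7 (also by exact permutation, p = 0.457 to 0.924), −0.10 to 0.25 for Tbr1, −0.31 to 0.23 for Cck, −0.25 to 0.38 for Prdm8, −0.045 to 0.29 for Vxn and −0.34 to 0.11 for Ccn3. In males they spanned −0.10 to 0.38 for Slc30a3, −0.00433 to 0.67 for Nrn1 and −0.0483 to 0.0407 for Nr1d1. Over both sets they spanned −0.22 to 0.071 for Slc30a3 and −0.16 to 0.20 for Nrn1, and for the difference between sets −0.18 to 0.33 for Bmp3. Of the 60 relations to striatal genes 20 passed, 17 by Spearman's rho, 20 after quantile normalization, 6 without the 2 farthest arrays and 16 to 30 when 1 array was left out. All 90 gene pairs stayed positive in every setting run. With 5 or 6 arrays a group, the male Slc17a7 difference has an SE of 0.85, and no measure of signal over background was used for levels near the lower quartile of an array.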

Other observations

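Genes of local striatal interneurons and of neighbouring regions also varied with Slc17a7, and are described here as values chosen after they were seen. In the 12 male arrays, Lhx6 and Lhx8, homeobox genes of interneurons and basal forebrain neurons, were opposite to Slc17a7 (r = −0.95 and −0.89 over within-group deviations), with Lhx6 at 7.85 to 8.90. The cholinergic genes Chat (−0.91), Slc5a7 (−0.84) and Slc18a3 (−0.82) were opposite too. In the male arrays 1.88% of 22179 genes had an r of −0.8 or lower. The same 3 cholinergic genes gave −0.25, −0.29 and −0.31 in females and Lhx6 and Lhx8 gave −0.18 and −0.51, and the difference between the sets was not tested. Vip, a neuropeptide of cortical interneurons, instead followed Slc17a7 in both sets (0.90 in females and 0.95 in males), from 5.74 to 7.89. Of the 13 interneuron genes 6 were positive over all 23 arrays, with a median of −0.21, and the medians were 0.30 in females and −0.41 in males. In the male arrays alone 5 of the 13 were at −0.8 or lower and 6 were positive. Sst (0.42), Npy (0.50), Nos1 (0.49) and Htr3a (0.47) were among the positive ones, so the interneuron genes shared no single direction.

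Of 10 genes of the septum, hypothalamus and their neighbours, 5 were positive over all arrays, with a median of 0.04, and the medians were 0.14 in females and −0.06 in males. The most opposite was Tcf7l2 (−0.85), a thalamic and habenular factor, at 6.65 to 7.98 in males. Over all 23 arrays, lists of glial genes gave medians of −0.41 for astrocytes (8 genes), −0.44 for myelin (7 genes) and −0.31 for microglia (8 genes), and of −0.03 for ependyma and choroid plexus (6 genes), with 0 of their genes at 0.8 or higher and 0 at −0.8 or lower. In the male arrays alone the medians were −0.53, −0.62, −0.33 and −0.08, with the astrocyte genes Slc1a2 at 0.88 and S100b at −0.93. In the female arrays they were −0.12, −0.15, −0.05 and 0.05, with 0 genes past 0.8 in either direction. Slc17a6, the vesicular glutamate transporter of thalamic and other subcortical neurons, was highest on male control 6 (7.97) and male knockdown 6 (7.66). Male control 6 was the array lowest in Slc17a7. All female arrays were at 6.50 to 7.13. Male control 4 (7.49) and male control 1 (7.21), the male array highest in Slc17a7, were also above that range. Male control 3 (6.99) and male control 5 (6.67), both low in Slc17a7, lay inside it. Over within-group deviations r with Slc17a7 was −0.14 in females and −0.58 in males. Male control 1 also held the highest male values of several genes of the cortical list. Among them were Tshz3 (8.74, where the other male arrays reached 7.91) and Dkk3 (9.72, where they reached 8.85), genes of deep cortical layers. Over the male arrays the r of Tshz3 and Dkk3 with Slc17a7 was 0.16 and 0.75. Rprm (7.63, the others reaching 7.24), Hs3st4 (7.64, the others reaching 7.29), Nxph3 (7.47, the others reaching 7.44) and Fezf2 (8.48) were highest there too. The list was mixed on this array. Otof (7.35) and Nell1 (8.39) had their lowest male values there, and Syt6 (8.44, in a male range of 8.34 to 8.72) and Tle4 (9.73, in 9.68 to 9.99) were near their lowest.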
